A study of Mus musculus with 6 samples.

Results

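The genes that prepare peptides for MHC class I molecules were compared between recombination-reporter positive B lineage cells of the small intestinal lamina propria, the connective tissue under the gut epithelium, and those of the bone marrow. The set comprised 9 genes chosen by symbol from the 19938 measured, namely B2m, Tap1, Tap2, Tapbp, Nlrc5, Psmb8, Psmb9, Psmb10 and Erap1. These symbols stood alone on 27 of the 35556 probe sets of the array, 19 of them for Nlrc5. All 9 genes had values in all 6 arrays, with no filter on low values. GFP+ cells were sorted from RAG2-GFP/129Sve mice, whose fluorescent reporter follows Rag2, a gene needed to cut DNA during receptor gene assembly. Both groups were thus reporter-bearing, from animals 17 to 25 days old housed in a regular SPF facility, with 3 lamina propria pools and 3 bone marrow pools, each hybridised to 1 array. Each experiment pooled cells of 8 to 12 mice, so a value stands for a pool and not for an animal.

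MHC class I molecules show fragments of a cell's own proteins to CD8 T cells. The proteasome cuts the proteins, the TAP transporter carries the fragments into the endoplasmic reticulum, aminopeptidases trim them there, and tapasin helps a fitting peptide bind to the heavy chain and its light chain, beta-2 microglobulin. In lymphocytes an immunoproteasome with exchanged catalytic subunits is common, and NLRC5 is a transactivator of many of these genes, which interferon also induces.

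Lamina propria pools 1 and 2 stood apart from the other 4 arrays, with r across genes between 0.766 and 0.832, while r between pool 3 and the marrow arrays was 0.954 to 0.966. Log2 RMA values had an interquartile range of 1.94 to 2.00 in those pools, against 2.47 in pool 3 and 2.41 to 2.46 in the marrow arrays. Genes with a marrow level between 8 and 9 lay below the marrow mean by medians of -1.38, -1.55 and -0.04 in pools 1, 2 and 3. Results are therefore given for each pool. The sorts carried B lineage transcripts in both tissues, with 13 of 14 measured markers above the array median in every array and mean marker levels of 8.998 to 9.27 in lamina propria arrays and 9.24 to 9.72 in marrow arrays. Of these 14, 13 averaged lower in lamina propria, against 32.4% of all genes. The median difference of the 14 (lamina propria minus bone marrow, log2) was -0.23, beside -0.43 for genes at their marrow levels. For 3, Rag1, Rag2 and Dntt, every lamina propria pool lay below every marrow pool, as for 7.27% of all genes. That share was 9.86% among genes with a marrow level between 11 and 12, where Rag1 and Dntt lay. It was 22.1% between 8 and 9, where Rag2 lay. Between 10 and 11, the interval of the list's median marrow level, it was 20.8%. Rag2 measured 5.67, 5.75 and 6.06 in lamina propria pools 1, 2 and 3, against 7.76, 8.49 and 8.28 in marrow pools 1, 2 and 3.

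No member passed the threshold in either direction. In limma, over all genes and with Benjamini-Hochberg adjustment, 0 of the 9 were called at an adjusted p under 0.05, as were 0% of all genes. At an unadjusted p under 0.05 there were 2 members, Tapbp and Psmb9, against 13.7% of all genes. Tapbp lay higher in every lamina propria pool than in every marrow pool, and the other 8 members overlapped between the tissues, against 22.1% of all genes without overlap, 14.8% higher and 7.27% lower. Of the 9, 3 had a positive and 6 a negative difference (lamina propria minus bone marrow, log2), while 32.4% of all genes had a negative one. The median difference of the members was -0.04, beside 0.22 over all genes. Differences varied with level, and genes at the members' own marrow levels had a median of -0.06, so the median of the members was close to that of equally bright genes. Single members lay on both sides of the median of such genes, and not all of them far from it. Of the genes at each member's level, 98.2% had a smaller difference than Tapbp and 88.3% than the brightest Nlrc5 probe set. For Psmb9 that share was 19.2% and for Erap1 5.30%. These are bulk pools, in which fewer cells of a type and less RNA per cell cannot be told apart.

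**Figure D1:**
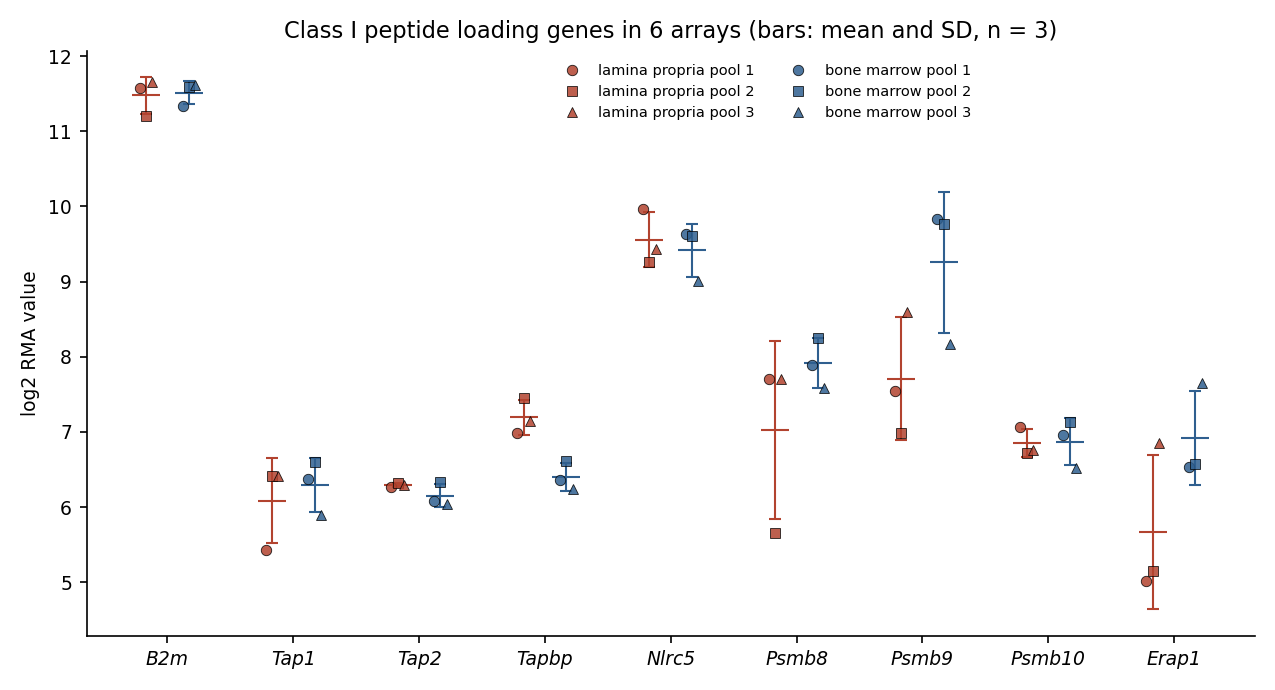
Log2 RMA values (y axis) of the 9 genes in the 3 lamina propria pools (red, left) and the 3 bone marrow pools (blue, right), with the mean and SD of each tissue (n = 3). Tapbp separates the tissues, B2m lies between 11.20 and 11.66 in every array, and Psmb8, Psmb9 and Erap1 spread widely.

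Promoter sequence is shown for B2m, the common light chain, and for Psmb9 and Tap1, which lie head to head on chromosome 17 and share the stretch between their starts. It was taken from RefSeq (GRCm38.p6), where 7 of the 9 members matched, all but Tap2 and Nlrc5. The 225 bases between Psmb9 and Tap1 lie at chr17:34187331-34187555 and are given 5′ to 3′ on the + strand, toward Tap1. The 250 bases before B2m lie at chr2:122147437-122147686 on the + strand. Capitals mark matches on either strand to a CCAAT box (CCAAT) or to the core of a cyclic AMP response element (TGACG), which do not overlap each other in these stretches. Elements of both kinds belong to the promoter module through which class I genes are known to be controlled. Whether the spacing and orientation of these matches are those of that module was not tested.
Psmb9 to Tap1: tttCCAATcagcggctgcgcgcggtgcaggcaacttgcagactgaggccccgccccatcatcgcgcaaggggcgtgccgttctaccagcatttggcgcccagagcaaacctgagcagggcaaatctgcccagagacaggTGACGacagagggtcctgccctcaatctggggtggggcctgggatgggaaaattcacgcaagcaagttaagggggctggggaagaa
B2m: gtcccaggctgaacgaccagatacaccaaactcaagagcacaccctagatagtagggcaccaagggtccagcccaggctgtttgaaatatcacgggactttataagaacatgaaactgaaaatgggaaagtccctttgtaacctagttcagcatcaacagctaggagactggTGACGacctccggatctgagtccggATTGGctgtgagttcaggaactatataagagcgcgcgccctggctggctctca

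Among 32851 promoter windows that reach from 250 bases before to 50 after a start, 37.4% held CCAAT and 20.8% TGACG. Of the 7 matched members, 4 held CCAAT (B2m, Psmb9, Tap1 and Tapbp) and 3 held TGACG (B2m, Psmb9 and Tap1). The windows of Psmb9 and Tap1 overlap by 275 bases, and their matches are the same CCAAT and the same TGACG. These members therefore do not count independently. Counted from the start, TGACG stood at -78 and CCAAT at -53 before B2m, and at -86 and -222 before Tap1. B2m held TGACG once more at 44, after its start. The windows of Psmb8, Psmb10 and Erap1 held neither. A match of letters is a description and not a binding site.

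B2m encodes the light chain that every classical class I molecule needs to reach the surface. Its values were 11.57, 11.20 and 11.66 in lamina propria pools 1, 2 and 3, against 11.33, 11.59 and 11.62 in marrow pools 1, 2 and 3. The arrays of both tissues interleaved, far above the array medians of 5.34 to 5.48. The difference was -0.04 (95% interval -0.55 to 0.47, limma adjusted p = 0.909), and it changed sign to 0.79 when all arrays were given the same interquartile range. Among the 71 genes with a marrow level between 11 and 12, the median difference was -0.14, so the value of B2m was near that of equally bright genes.

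Tapbp encodes tapasin, which holds the empty class I molecule next to the transporter and favours tightly binding peptides. It measured 6.98, 7.45 and 7.15 in lamina propria pools 1, 2 and 3, against 6.36, 6.61 and 6.24 in marrow pools 1, 2 and 3. The lowest lamina propria pool lay above the highest marrow pool. The lamina propria pools averaged 7.19 ± 0.24 and the marrow pools 6.40 ± 0.19 (n = 3 each, SD), which is 1.73-fold or 0.79 on the log2 scale (95% interval 0.28 to 1.31). This missed the threshold over all genes (limma adjusted p = 0.342).

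The Tapbp difference did not rest on the pools that stood apart. Against the marrow mean, pools 1, 2 and 3 lay 0.58, 1.05 and 0.75 higher. Of the 3450 genes with a marrow level between 6 and 7, whose median difference was -0.06, 98.2% had a smaller difference than Tapbp. Within single pools that share was 83.6%, 96.2% and 94.3%. The marrow level that defines these genes also enters their differences. Without lamina propria pool 3 Tapbp was called (limma adjusted p = 0.0363, with a range of 0.0363 to 0.645 over all alternatives), in a comparison that called 24.1% of all genes higher. Markers of macrophages, monocytes and dendritic cells, which also express tapasin, averaged 5.34 to 5.49 in lamina propria arrays and 5.12 to 5.39 in marrow arrays. Their part in the result was not tested.

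Tap1 and Tap2 encode the paired subunits of the peptide transporter. Tap1 measured 5.43, 6.41 and 6.42 in lamina propria pools 1, 2 and 3, against 6.37, 6.60 and 5.90 in marrow pools 1, 2 and 3. Pool 1 was the low one, at -0.86 from the marrow mean, while pools 2 and 3 lay inside the marrow range. The Tap1 difference of -0.20 (95% interval -0.99 to 0.59, limma adjusted p = 0.681) became 0.13 without pool 1. Tap2 measured 6.27, 6.31 and 6.30 in the lamina propria pools, against 6.08, 6.33 and 6.04 in the marrow pools, a difference of 0.14 (95% interval -0.30 to 0.59, limma adjusted p = 0.611). The lamina propria pools spanned 0.04 for Tap2 and 0.99 for Tap1, so of the subunits only Tap1 varied much in these 3 arrays.

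Erap1 encodes the aminopeptidase that shortens peptides inside the endoplasmic reticulum. It measured 5.01, 5.14 and 6.85 in lamina propria pools 1, 2 and 3, against 6.54, 6.57 and 7.65 in marrow pools 1, 2 and 3. Pools 1 and 2 lay below the median of their own arrays, while pool 3 lay within the marrow range. The lamina propria pools averaged 5.67 ± 1.03 and the marrow pools 6.92 ± 0.63 (n = 3 each, SD), with a difference of -1.25 (95% interval -2.52 to 0.02, limma adjusted p = 0.356). Pool 3 alone differed from the marrow mean by -0.07, against -1.91 and -1.77 in pools 1 and 2. Genes of the same marrow level had medians of -0.09 and -0.13 in pools 1 and 2, and 5.30% of those genes had a smaller difference over all arrays than Erap1. Without pool 3 the difference was -1.84 and was called (limma adjusted p = 0.0241, range 0.0241 to 0.998 over all alternatives), as were 12.1% of all genes in the lower direction.

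**Figure D2:**
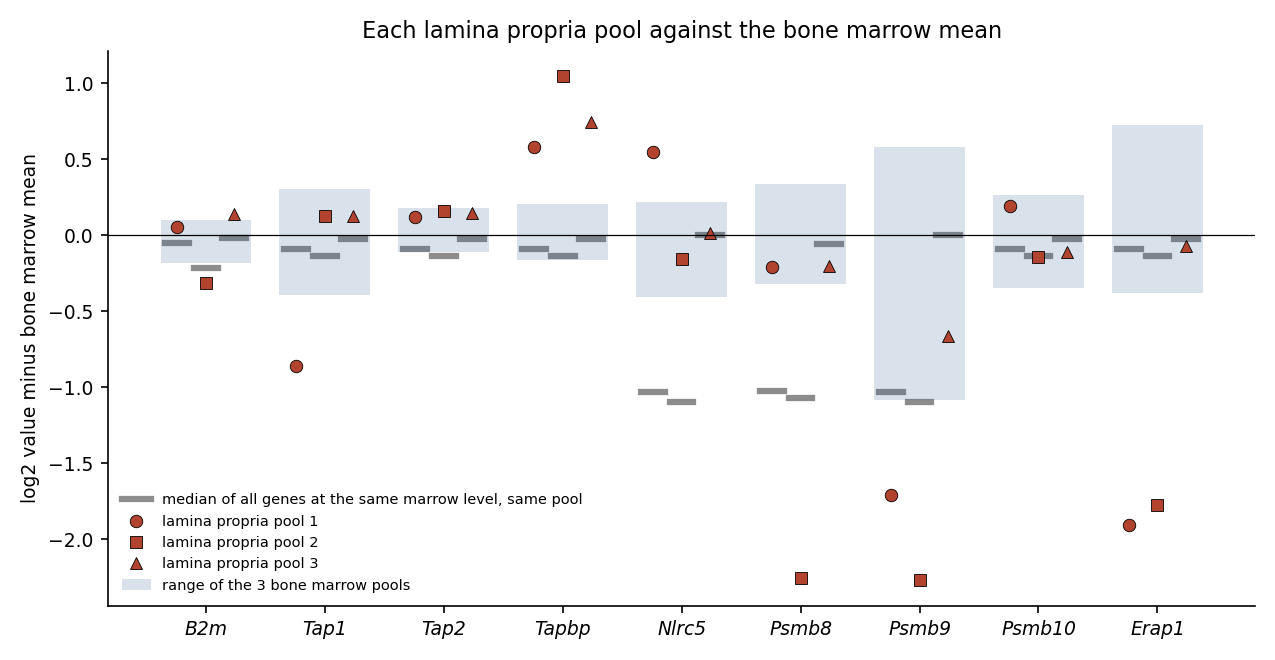
Difference of each lamina propria pool from the bone marrow mean (y axis, log2) for the 9 genes, with the range of the marrow pools (blue) and the median of all genes at the same marrow level in the same pool (grey lines). Tapbp lies above the marrow range in all 3 pools. Erap1 and Psmb9 lie lowest in pools 1 and 2, and Psmb8 in pool 2 at -2.25.

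The immunoproteasome subunits differed among themselves. Psmb9, which takes the place of Psmb6 in the catalytic core, measured 7.55, 6.99 and 8.59 in lamina propria pools 1, 2 and 3, against 9.84, 9.76 and 8.17 in marrow pools 1, 2 and 3. Marrow pool 3 was lower than lamina propria pool 3, so the tissues overlapped. The lamina propria pools averaged 7.71 ± 0.81 and the marrow pools 9.26 ± 0.94 (n = 3 each, SD), with a difference of -1.55 (95% interval -2.85 to -0.24, limma adjusted p = 0.356), or 2.93-fold lower. Genes with a marrow level between 9 and 10 had a median difference of -0.77, and 19.2% of these 426 genes had a smaller difference than Psmb9. Without lamina propria pool 3 Psmb9 was called at -1.99 (limma adjusted p = 0.0431), as were 12.1% of all genes in the lower direction. Its adjusted p ranged from 0.0340 to 0.645 over the alternatives with more than 1 pool in each tissue. Pool 3 alone gave -0.67. Tap1, on the other side of the shared stretch, differed by -0.20 over all arrays.

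Psmb8, the immune counterpart of Psmb5, measured 7.70, 5.66 and 7.71 in lamina propria pools 1, 2 and 3, against 7.89, 8.25 and 7.59 in marrow pools 1, 2 and 3. Pool 2 alone stood low, and pools 1 and 3 lay inside the marrow range. The difference was -0.89 (95% interval -2.18 to 0.40, limma adjusted p = 0.380), and -0.20 without pool 2. Genes with a marrow level between 7 and 8 had a median difference of -0.69, and 39.5% of these 1953 genes had a smaller difference than Psmb8. Psmb10, the counterpart of Psmb7, measured 7.06, 6.72 and 6.76 in the lamina propria pools, against 6.95, 7.14 and 6.52 in the marrow pools, with every lamina propria value inside the marrow range. Its difference of -0.02 (95% interval -0.58 to 0.53, limma adjusted p = 0.952) changed sign under 2 of the 3 scalings tried, to 0.14 with equal interquartile ranges and 0.27 with quantile normalization.

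Each immune subunit was then set against the constitutive subunit it replaces, within each array, which removes an equal shift of all genes in an array. The size of such a contrast also holds the response of the probes, so it is read between tissues alone. Psmb8 minus Psmb5 was 0.41, -3.49 and -0.49 in lamina propria pools 1, 2 and 3, against -0.14, -0.01 and -0.16 in the marrow pools. Psmb9 minus Psmb6 was -1.66, 1.08 and 0.06 in the lamina propria, against 0.88, 0.89 and 0.66 in the marrow. Psmb10 minus Psmb7 was -0.35, 1.71 and -1.75 in the lamina propria, against -1.06, -1.41 and -1.34 in the marrow. These contrasts were tight in the marrow, with SDs of 0.08, 0.13 and 0.18, and wide in the lamina propria, with SDs of 2.04, 1.38 and 1.74 (n = 3 each). The tissue differences were -1.09, -0.98 and 1.14. In exact two-sided permutation tests p was 0.7, 0.4 and 0.4, each at least 0.6 after Benjamini-Hochberg adjustment over the 3 pairs, where 3 against 3 arrays cannot give less than 0.1.

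**Figure D3:**
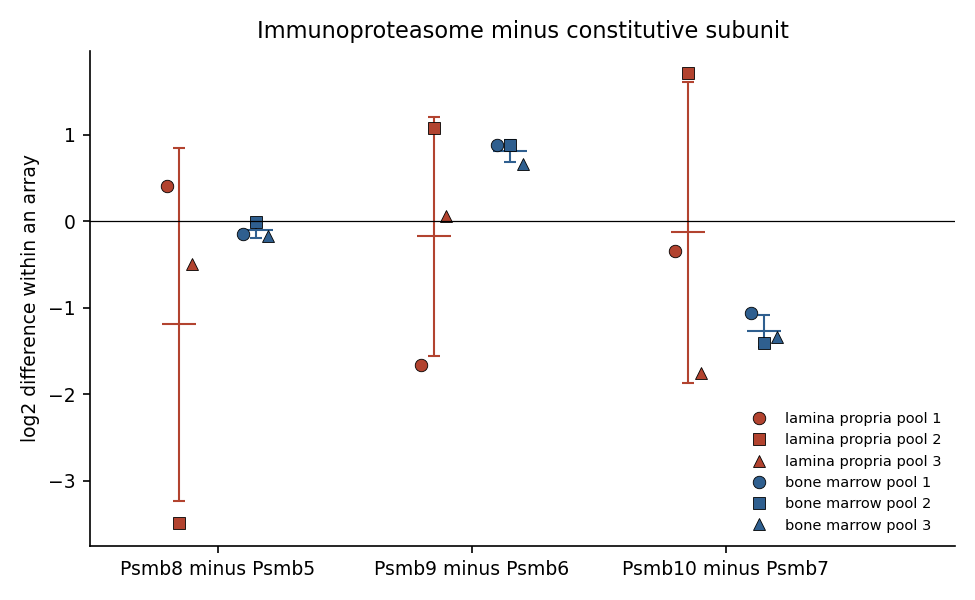
Log2 value of each immunoproteasome subunit minus that of its constitutive counterpart within an array (y axis), for lamina propria (red, left) and bone marrow (blue, right) pools, with mean and SD (n = 3). The marrow pools cluster tightly in each pair, while the lamina propria pools run from -3.49 to 0.41 for Psmb8 minus Psmb5.

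The spread in the lamina propria came from the constitutive subunits too. Psmb6 measured 9.21, 5.91 and 8.53 in lamina propria pools 1, 2 and 3, against 8.96, 8.88 and 7.51 in marrow pools 1, 2 and 3. Psmb7 measured 7.41, 5.01 and 8.51 in the lamina propria, against 8.02, 8.54 and 7.86 in the marrow. Pool 2 was thus low for Psmb8, Psmb6 and Psmb7, but not for Psmb5, at 7.29, 9.15 and 8.20 in the lamina propria against 8.04, 8.26 and 7.75 in the marrow. Without pool 2 the Psmb8 contrast was 0.06.

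Nlrc5, the class I transactivator, was measured by 19 probe sets that did not give a single picture. The brightest, which stood for the gene, measured 9.97, 9.26 and 9.44 in lamina propria pools 1, 2 and 3, against 9.64, 9.61 and 9.01 in marrow pools 1, 2 and 3, with the tissues interleaved. Its difference was 0.14 (95% interval -0.52 to 0.79, limma adjusted p = 0.739). The other 18 probe sets had means over the arrays between 3.54 and 7.39, and 13 of the 19 lay above the array median in every array. Over the 19, 16 differences were positive and 3 negative, from -0.22 to 1.03 with a median of 0.26, and 5 probe sets were higher without overlap. Of all genes, 67.6% had a positive difference and 14.8% were higher without overlap. The latter share was 17.1% at marrow levels between 5 and 6 and 6.78% between 6 and 7. Over all 19, the lamina propria pools averaged 6.39 ± 0.10 and the marrow pools 6.09 ± 0.12 (n = 3 each, SD), with a difference of 0.30 (limma adjusted p = 0.386). Probe sets of a gene share its transcript and are not replicates. The median difference was 0.22 over all genes, but it varied with level. Among the 426 genes at the marrow level of the brightest probe set it was -0.77, and 88.3% had a smaller difference than that probe set. Genes with a marrow level between 6 and 7, where the marrow mean over all 19 lay, had a median of -0.06.

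**Figure D4:**
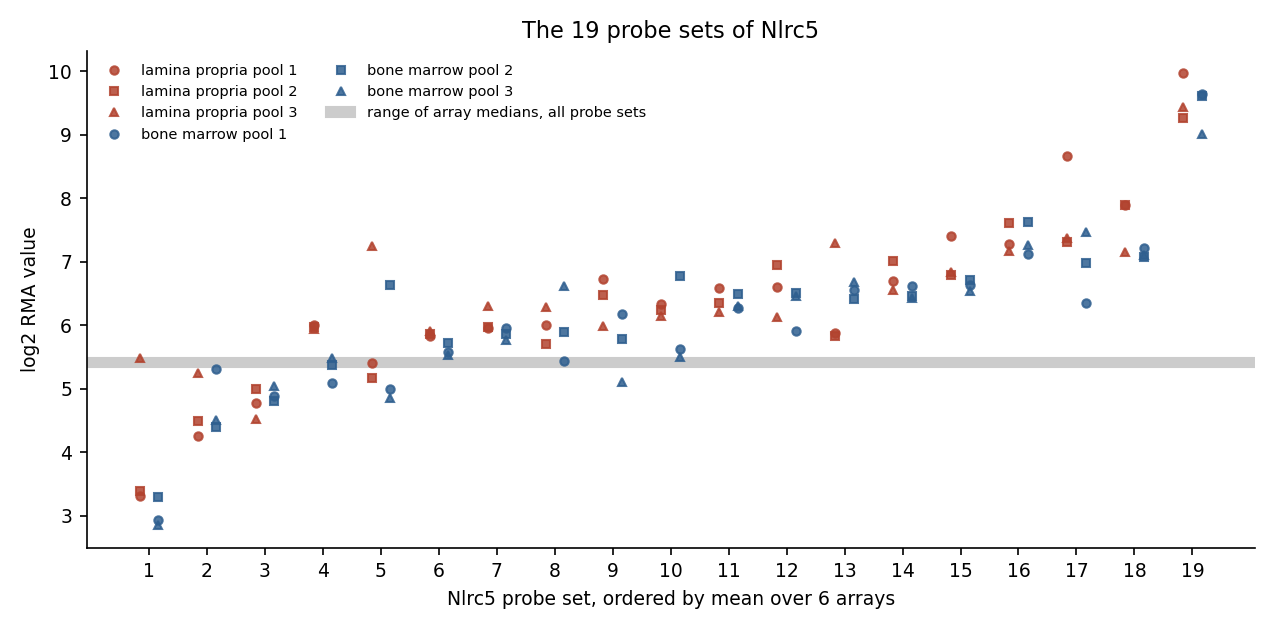
Log2 RMA values (y axis) of the 19 Nlrc5 probe sets, ordered by their mean (x axis), in lamina propria (red, left) and bone marrow (blue, right) pools, with the range of array medians in grey. One probe set stands near 9.5, and the rest lie lower, several of them near the array medians.

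The wider class I pathway also gave no call, with 0 members of any list called in either direction by limma. Each list is read against all genes, of which 67.6% had a positive and 32.4% a negative difference, 14.8% were higher and 7.27% lower without overlap, and 13.7% had an unadjusted p under 0.05. Its median is also set beside that of genes at its members' marrow levels. Class I heavy chain genes were measured for 12 of 24 listed, and the classical H2-K1 and H2-D1 were not analysed here. Of the 12, 8 had a positive difference, much as over all genes, the median was 0.21 beside 0.30 for genes of like level, 2 were higher and 2 lower without overlap, and 2 had an unadjusted p under 0.05. The list's median marrow level was 5.80, and of all genes between 5 and 6, 17.1% were higher and 3.78% lower without overlap. Mr1, which presents microbial vitamin metabolites, averaged 5.40 ± 0.08 in lamina propria pools and 5.93 ± 0.24 in marrow pools (n = 3 each, SD). Cd1d1, which presents lipids, averaged 5.60 ± 0.13 in lamina propria pools and 5.99 ± 0.13 in marrow pools. The other separated members, H2-Q10 at 0.51 and H2-M10.1 at 0.30, averaged below the array medians in both tissues. H2-M3, which presents formylated peptides, differed by -0.09, and H2-Q4 by 0.71, or 0.22 without lamina propria pool 3, both with overlap.

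Chaperone and trimming genes did not separate the tissues more often than genes at large. Of 23 measured, 7 had a positive and 16 a negative difference, with a median of -0.48 beside -0.69 for genes of like level. Without overlap 3 were higher and 0 lower, and 3 had an unadjusted p under 0.05, each share near that of all genes or below it. Hspa5, the abundant chaperone BiP, measured 10.67, 10.66 and 10.73 in lamina propria pools 1, 2 and 3, against 9.63, 9.90 and 9.65 in marrow pools 1, 2 and 3, a difference of 0.96 (95% interval 0.51 to 1.41, limma adjusted p = 0.246). Pdia4, a disulfide isomerase, measured 8.57, 8.70 and 8.11 in the lamina propria, against 7.61, 7.35 and 7.34 in the marrow, a difference of 1.03 (95% interval 0.49 to 1.57, limma adjusted p = 0.281). These genes and Thop1, a cytosolic peptidase, at 0.41, were the 3 without overlap. That share varied with level. Higher without overlap were 1.64% of all genes at the marrow level of Hspa5, 1.89% at that of Pdia4 and 17.1% at that of Thop1. The chaperones that work with tapasin overlapped between the tissues, and 1 pool set each value (Calr and Pdia3 were picked after their values were seen). Calr differed by -0.37 with pool 1 at 6.54, and by 0.54 without that pool. Canx differed by -0.48 with pool 2 at 9.02, and by 0.065 without that pool. Pdia3 differed by -1.39 with pool 2 at 4.38, and by -0.070 without it. The list's median in pool 3 alone was 0.26.

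Proteasome genes outside the immune subunits had lower medians in pools 1 and 2 than in pool 3. Of 21 genes of the core particle, 13 had a negative difference, 4 were lower and 1 higher without overlap, and 6 had an unadjusted p under 0.05. Their median marrow level was 8.14, and of all genes between 8 and 9, 22.1% were lower and 1.46% higher without overlap. The median difference of -0.49 lay above the -0.77 of genes of like level, with pool medians of -0.55, -0.92 and 0.09 in pools 1, 2 and 3. Psma5 and Psma1, of the outer ring, differed by -2.94 (95% interval -4.64 to -1.24) and -2.20 (95% interval -3.89 to -0.52), limma adjusted p = 0.301 and 0.356. For Psma5 the lamina propria pools measured 4.50, 5.29 and 7.58, against 8.74, 9.14 and 8.31 in the marrow. Psma8, a germ cell subunit, differed by -0.83, or -0.44 without marrow pool 3, and Psmg4, an assembly chaperone, by -0.58. The genes with the highest means, Psma3 at 0.20 and Psmb4 at -0.35, overlapped, and Psmb4 was at 0.080 without pool 2.

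Of 22 genes of the proteasome activators and the regulatory particle, 17 had a negative difference, with a median of -0.71 beside -0.77 for genes of like level, 1 lower and 1 higher without overlap and 5 with an unadjusted p under 0.05. The list's median marrow level was 8.16, and of all genes between 8 and 9, 22.1% were lower and 1.46% higher without overlap. The list's pool medians were -1.30, -1.41 and 0.17, so pool 3 lay on the other side of the marrow mean. Psmc1, an ATPase of the regulatory particle, differed by -1.23 and Psmd3 by 0.45, or 0.27 without pool 3, both without overlap. Psme1, a subunit of the interferon-induced activator, measured 10.19, 7.94 and 9.92 in the lamina propria pools, against 10.19, 10.003 and 9.78 in the marrow pools, with pool 2 alone low. Its difference of -0.64 was 0.065 without pool 2. Psmc5, another ATPase, differed by 0.47, or 0.19 without pool 3.

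**Figure D5:**
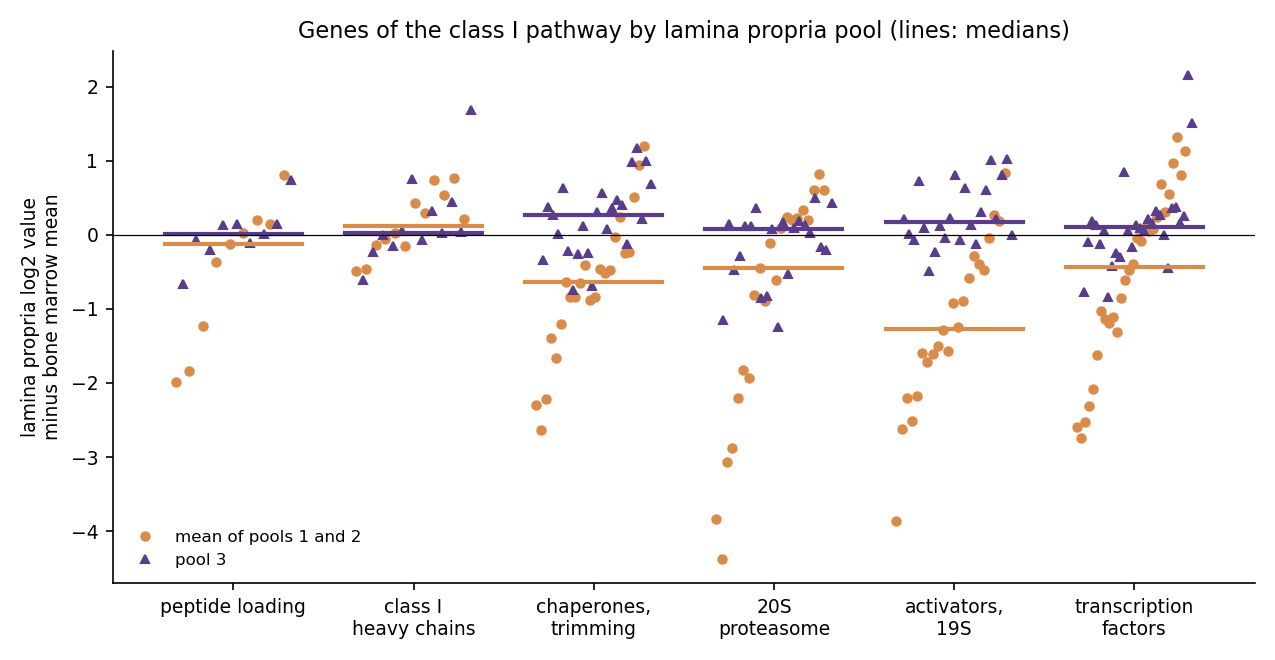
Log2 differences from the bone marrow mean (y axis) for each gene of the peptide loading set and 5 further lists of the class I pathway (x axis), as the mean of lamina propria pools 1 and 2 (orange) and as pool 3 (violet), with list medians as lines. The 2 medians lie at -0.13 and 0.02 for the peptide loading genes, and at -1.27 and 0.17 for the activators and regulatory particle.

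Among 28 measured transcription factors and interferon pathway genes, 12 had a positive difference, the median was -0.25 beside -0.69 for genes of like level, 5 were higher and 3 lower without overlap, and 8 had an unadjusted p under 0.05. The list's median marrow level was 7.17, and of all genes between 7 and 8, 1.89% were higher and 22.3% lower without overlap. Of the 5, Ciita and Usf1 were dimmer, at marrow means of 5.16 and 4.32, where 17.1% and 23.96% of all genes were higher without overlap. Rel, an NF-kB subunit, measured 10.54, 9.98 and 10.64 in the lamina propria pools, against 9.17, 9.06 and 9.16 in the marrow pools, a difference of 1.26 (limma adjusted p = 0.226). Rfxap, a part of the complex that brings NLRC5 to class I promoters, measured 8.64, 8.36 and 7.42 in the lamina propria pools, against 7.31, 7.10 and 7.11 in the marrow pools, a difference of 0.97 (limma adjusted p = 0.356). Creb1, which binds TGACG elements, differed by -1.98 and Ezh2, a histone methyltransferase, by -0.90, both lower in every lamina propria pool, with Ezh2 at -0.37 without pool 2. Irf1, an interferon-induced activator of class I genes picked after its values were seen, measured 8.94, 7.17 and 9.41 in the lamina propria, against 6.57, 7.57 and 7.62 in the marrow. Pools 1 and 3 stood above all marrow pools for Irf1 and pool 2 did not, and the difference was 1.25 (limma adjusted p = 0.356).

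Other cell types carry class I genes as well, so their markers are given beside the members. Dim genes of any kind tended to positive differences in pools 1 and 2, and 67.6% of all genes had one over all arrays. T cell markers had positive differences in 14 of 14, with a median of 0.44 beside 0.33 for genes of like level, and with mean levels of 4.98 to 5.33 in lamina propria arrays and 4.68 to 4.86 in marrow arrays. Intestinal epithelium markers were positive in 23 of 23, with the same pair of medians, 0.44 and 0.33, at 5.01 to 5.28 in lamina propria and 4.69 to 4.70 in marrow arrays. Higher without overlap were 8 of the 14 T cell markers and 9 of the 23 epithelial markers, and 0 were lower without overlap. Both lists had a median marrow level between 4 and 5, where 23.96% of all genes were higher without overlap. Among the 8 were Themis at 0.68 and Cd8a at 0.66, and among the 9 were Reg3b at 0.80 and Cdx1 at 0.76. Granulocyte markers were positive in 10 of 14, at 4.83 to 5.39 in lamina propria and 4.89 to 5.66 in marrow arrays, and plasma cell markers in 5 of 9, at 6.05 to 6.74 in lamina propria and 6.28 to 6.56 in marrow arrays. Macrophage, monocyte and dendritic cell markers were positive in 12 of 16. Log2 RMA values have no true 0, and of the T cell, epithelial and granulocyte markers none averaged above 8. Jchain, of secreted antibody, at 1.41 and Olfm4, of intestinal crypts, at 1.31 were higher without overlap, with Jchain averaging 4.42 in lamina propria pools and 3.01 in marrow pools, below the array medians. The other named plasma cell genes gave -1.31 for Igha, the IgA constant region, -0.60 for Sec11c and 0.08 for Irf4, all with overlap. S100a9, of neutrophils, was lower without overlap, at 5.57, 5.63 and 5.30 in lamina propria pools, against 6.56, 9.26 and 6.68 in marrow pools. Without marrow pool 2 its difference was -1.12. Csf1r, of macrophages, differed by 0.71 and Cd68 by -0.71, both without overlap. Their part in the members' values was not tested.

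The genes most like the average of the 9 members over the 6 arrays were Ppia (r = 0.9995), Slamf7 (r = 0.994), Ciao2a (r = 0.990), ND3 (r = 0.986) and Emg1 (r = 0.983). They were the best of 1118 genes with a mean above 8, of which 4.03% reached an r above 0.9, and the arrays share tissue and spread. The average of the members, centred per gene, was -0.19, -0.46 and 0.17 in lamina propria pools 1, 2 and 3, against 0.19, 0.35 and -0.06 in marrow pools 1, 2 and 3. It was not scaled, so members with a wide spread weigh more. The members shared no single profile, with r between pairs from -0.70 (Tapbp and Erap1) to 0.89 (Nlrc5 and Psmb10).

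Counts by pool show where the members stood. Of the 9 members, 2 in lamina propria pool 1 lay above all marrow pools, 3 below and 4 inside their range, against 59.7% of all genes above and 24.1% below, 83.8% outside in all. In pool 2, 1 lay above, 4 below and 4 inside, against 58.4% of all genes above and 25.2% below, 83.6% outside in all. In pool 3 Tapbp and B2m lay above, 0 below and 7 inside, against 24.8% of all genes above and 26.7% below, 51.5% outside in all. Without pool 3, Tapbp was higher and Psmb9 and Erap1 were lower without overlap, against 51.2% and 18.7% of all genes, 69.9% in all. The same 3 members were called by limma without pool 3, among 36.2% of all genes, and when arrays were weighted by their fit (0.153 for pool 3), among 28% of all genes, 16.9% higher and 11.1% lower.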

How the data were processed

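RNA of sorted cells, 6 pools in all, was measured on 1 whole-transcript array per pool. Per the labels' protocols, Trizol extraction gave small amounts of RNA, and between 4.5 and 47 ng entered amplification. The deposited values are log2 RMA signals. Per the submitters' processing notes, Expression Console 1.3.0.187 was the software, with settings not given in the sources used here. Precision is limited by the number of arrays, and RMA can mix a loss of many transcripts into the other values of an array.

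The values were used as deposited, without further scaling or filter. The platform's gene table gave 1 symbol for 21789 of 35556 probe sets, several for 1621 and did not list 12146. Only probe sets with 1 symbol were used, and 2 that name a member beside another gene were left out. Where a gene had several, as Nlrc5 did, the highest mean chose the probe set. The tissues were compared by limma 3.58.1 (R 4.3.3, moderated and two-sided, without a block), with 95% intervals and Benjamini-Hochberg adjustment over all 19938 genes. P-values measure the spread between pools. Genes at the same or like marrow level are those whose marrow mean falls in the same interval of 1 log2 unit. For a list, the median over its members of the medians in those intervals is given. Leaving out an array for named genes that are no members was chosen after seeing the data. The limma step was tested on simulated data, and figures were drawn with matplotlib 3.10.9.

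The members and lists were chosen with earlier results of these data known. Named were all members, the up to 4 genes of each pathway list with the largest difference without overlap and the 2 brightest, and for each marker list genes from the 2 brightest and the 2 with the largest difference. Alternatives were a pool block, a filter on dim genes, 3 scalings, array weights, robust variances with an intensity trend, the mean of probe sets, a threshold of 0.01 and leaving out arrays.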

Additional observations from a re-analysis of the deposited data

How the results depend on the processing

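The count of members called, 0, was 3 with array weights (Tapbp higher, Psmb9 and Erap1 lower, where limma called 28% of all genes). Leaving out 1 array gave 0 to 3, the 3 without lamina propria pool 3. It stayed 0 under the other alternatives run, a threshold of 0.01 included. The count without overlap, 1, was 3 without pool 3, 2 in pool 3 alone and 5 in pool 1 or pool 2 alone, all chosen after seeing the data. Of all genes, 22.1% had no overlap, and 69.9% without pool 3. In pool 3 alone that share was 51.5%, and in pools 1 and 2 alone 83.8% and 83.6%. Over all genes limma called 0, but 16 with the pool number as a replicate block, 40 with an intensity trend and robust variances, 5586 with array weights and 0 to 7222 with 1 array left out, 7222 without lamina propria pool 3. The pool numbers are not known to pair the tissues, with correlations of deviations of 0.13, 0.05 and 0.23 for pools 1, 2 and 3, and the block called no member. The median difference of the members, -0.04, was 0.14 with equal interquartile ranges and ran from -0.20 to 0.040 with 1 array left out, the lowest without marrow pool 3. Psmb8 minus Psmb5 ran from -1.89 to 0.065 with 1 array left out, reversing without lamina propria pool 2, Psmb9 minus Psmb6 from -1.61 (without pool 2) to -0.24 (without pool 1), and Psmb10 minus Psmb7 from 0.22 (without pool 2) to 1.95 (without pool 3), or -0.48 without lamina propria pools 1 and 2.

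Single members whose difference was near 0 changed sign. B2m was 0.79 with equal interquartile ranges, 0.14 without lamina propria pools 1 and 2, and -0.13 to 0.10 with 1 array left out. Tap1 was 0.13 without pools 1 and 2, and -0.40 to 0.13 with 1 array left out. Nlrc5 was 0.69 with equal interquartile ranges and ran from -0.069 to 0.28 with 1 array left out. Psmb10 was 0.14 with equal interquartile ranges, 0.27 with quantile normalization, and -0.20 to 0.11 with 1 array left out. Tap2, Tapbp, Psmb8, Psmb9 and Erap1 kept their direction under all 15 alternatives run for each, though Erap1 was -0.07 without pools 1 and 2. The cause was not tested.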
